A study of Zea mays with 38 samples.

Results

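Aquaporins are channel proteins that let water, and in some members other small uncharged molecules, pass a membrane. In plants they fall into subfamilies that sit in different membranes: the plasma membrane intrinsic proteins (PIP), the tonoplast intrinsic proteins (TIP) of the vacuole, the NOD26-like intrinsic proteins (NIP) and the small basic intrinsic proteins (SIP). In leaves, PIP and TIP channels are known for carrying water between the veins, the mesophyll cells and their vacuoles. In maize, PIP1 proteins reach the plasma membrane with the help of PIP2 partners, and PIP2 proteins form the active water channels there. This family was followed in seedling leaves of maize that were exposed to UV-B radiation.

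The members were all spotted cDNA features whose gene carries a symbol or synonym beginning with PIP, TIP, NIP or SIP and a number, with or without the prefix Zm. This gave 32 features of 17 genes, and all 32 were among the 19979 features tested. Most features of the family, 17, belonged to 7 PIP genes, against 7 features of 4 TIP genes, 5 of 4 NIP genes and 3 of 2 SIP genes. The gene that the names PIP1-3 and PIP1-4 both denote had 5 features, and PIP2-6, also called pip2f, had 1. Several features belonged to 9 of the genes, and these features were kept apart throughout.

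Leaves under UV-B and control leaves were collected after 1, 2, 4, 8 and 12 h, and total RNA was measured on 2-colour cDNA slides. A UV sample was hybridised together with a control sample of its own time on each of 19 slides, which made 38 samples in 10 groups. There were 4 slides (a, b, c and d) at each time except 2 h, where 3 (a, c and d) were used. Slides a and b had the UV RNA in Cy5, and slides c and d had it in Cy3. The inbred line B73 is named for the samples of 1 and 2 h and no line for the later ones, and no age, UV dose or further treatment is given. Plants had been assigned to the groups at random, with a control group at each time, so that changes over the day are shared by the UV and the control leaves of a slide. The labels speak of dye-swap duplicates but do not say which slides came from separate plants or extracts, so p-values measure the spread between slides, which may be technical. The whole leaf was sampled, so a loss of the cells that hold a transcript and a loss of transcript per cell cannot be told apart.

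Each channel measured between 18795 and 20158 spots. The brightest of 7 spots with foreign sequences had a mean log2 intensity of 16.76, and 28 of the 32 aquaporin features lay above it, beside 72.5% of all features tested. The 4 below it were PIP1-3/PIP1-4 AI738281, PIP2-4 AI667810, SIP1-1 BE129574 and SIP2-1 AI737990. Among marker genes of green leaf, such as those of the light-harvesting and carbon-fixing proteins, 13 of 15 features lay above the foreign spots, and among seed markers 5 of 7 did. At 1, 2 and 4 h, slides of opposite dye orientation correlated negatively over all features, with median r of -0.244, -0.286 and -0.272, and at 8 and 12 h positively, with 0.199 and 0.132. Within one orientation the median r at a time was 0.329 or more.

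The first question was which aquaporin transcripts differed between UV and control leaves at each time. The comparison rests on log2(UV/control) per slide, where 1 unit is a doubling and a negative value means less in UV leaves. Few aquaporin features differed, in shares close to those of all features. By limma with Benjamini-Hochberg adjustment over all features and a threshold of 0.05, 1 aquaporin feature passed at 2 h (3.12% of the 32, against 4.13% of all features), 4 at 8 h (12.5% against 7.52%) and 2 at 12 h (6.25% against 4.32%). The feature of 2 h was lower in UV leaves, and of all features 2.72% were higher and 1.41% lower. At 8 h, 3 aquaporin features were higher and 1 lower, against 5.04% and 2.48% of all features, and at 12 h 1 was higher and 1 lower, against 2.33% and 2%. At 1 h and at 4 h none passed, which was also the share of all features (0%). At each of these times 1 aquaporin feature had an unadjusted p under 0.05, and the share of all features at this unadjusted threshold was not counted. The smallest adjusted p in the family was 0.476 at 1 h and 1 at 4 h. The median log2(UV/control) of the family lay between -0.0364 at 8 h and 0.0759 at 12 h, and that of all features between -0.01 at 2 h and -1e-04 at 8 h.

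**Figure D1:**
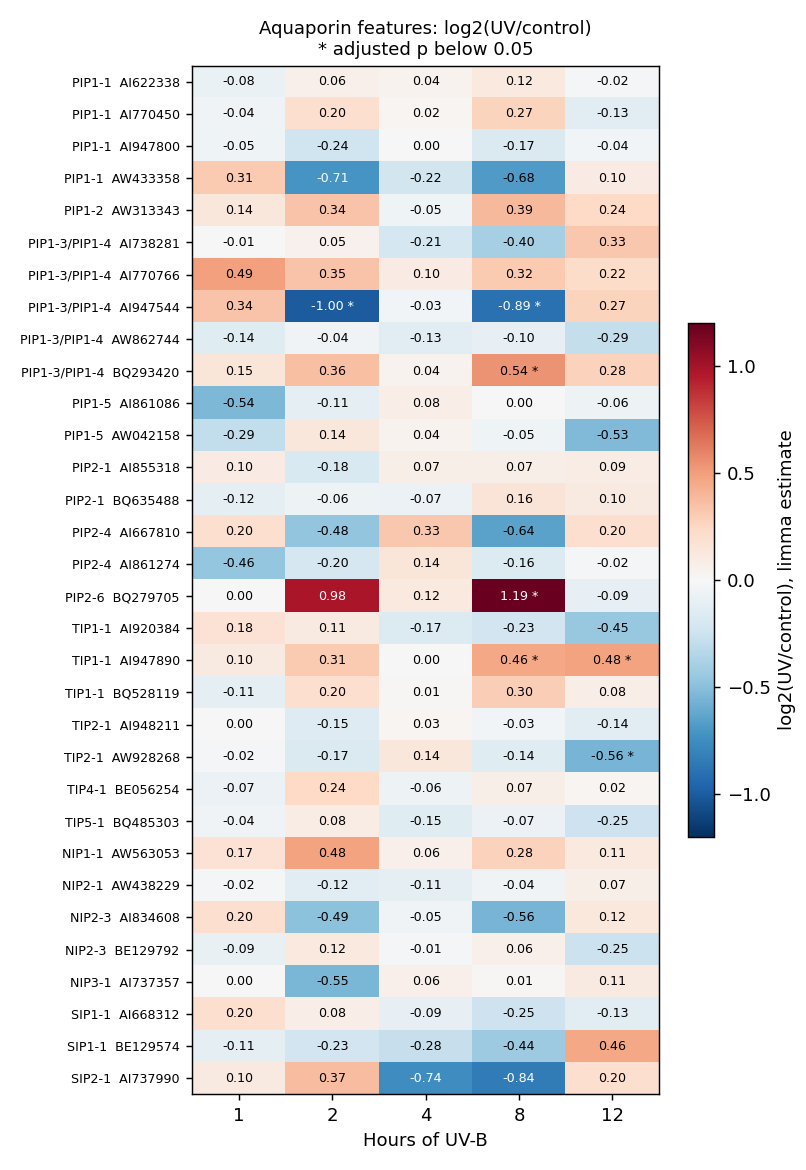
Estimated log2(UV/control) of each of the 32 aquaporin features (rows, ordered by subfamily) after 1, 2, 4, 8 and 12 h of UV-B (columns), from the limma fit over 19 slides; red is higher and blue lower in UV leaves, and a star marks an adjusted p below 0.05. The 7 stars stand at 2, 8 and 12 h, and the 1 h and 4 h columns hold none.

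The gene named PIP1-3 and PIP1-4, a plasma membrane aquaporin of the PIP1 group, had 1 feature called lower at 2 h and 8 h and another called higher at 8 h. Neither passed at 8 h once the median of the other spots in the feature's printed row was subtracted, as described below. Feature AI947544 was lower in UV leaves at 2 h and at 8 h. At 8 h its log2(UV/control) was -0.793 on slide a, -1.007 on b, -0.821 on c and -0.943 on d. All 4 slides were low and close to each other, in both dye orientations. The fit gave -0.89 ± 0.192 (SE, n = 4 slides), a level 0.539 times that of the control (limma adjusted p = 0.0134). At 2 h the values were -1.356 on slide a, -1.428 on c and -0.06 on d. Slides a and c were low and slide d was near 0, so the slides of 2 h did not share one response. The fit gave -0.998 ± 0.224 (SE, n = 3 slides), which is 0.501 times the control (limma adjusted p = 0.0255). Without slide a or without slide c at 2 h the adjusted p by limma was 0.126 and 0.176, and without slide a, b or d at 8 h it was 0.0678, 0.0578 and 0.0599.

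At 1 h the same feature was higher in UV leaves on all 4 slides, with 0.511, 0.235, 0.194 and 0.433 on slides a to d. At 4 h it was negative on slides a and b (-0.683 and -0.369) and positive on c and d (0.586 and 0.35), which separates the slides by dye orientation. At 12 h the slides gave 0.547, -0.065, 0.34 and 0.241. The values thus changed sign between times, and the change from 1 h to 8 h was -1.23 ± 0.272 (SE, limma adjusted p = 0.051), which missed the threshold. In the test of any difference between times, 0 aquaporin features passed by limma, against 0.155% of all features, and AI947544 had the smallest adjusted p in the family, 0.069. By that F-test, 5 aquaporin features had an unadjusted p under 0.05, and the share of all features at this unadjusted threshold was not counted.

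The spots of the printed row of AI947544 moved with it, while the median of the spots closest to it was less low on every slide at 8 h. The other 21 spots in its row of its printed block held other cDNAs, and the median of their log2(UV/control) at 8 h was -0.622, -0.984, -0.697 and -0.947 on slides a to d. At 2 h that row median was -0.909 on slide a, -1.556 on c and -0.087 on d. Row and feature were therefore low on the same slides and to nearly the same extent. Over 19 slides AI947544 correlated with its row at r = 0.93, against a median of 0.482 for all spots with their own rows and 0.47 for the aquaporin spots. After subtraction of the row median, a setting chosen after the data were seen, the fit gave -0.13 at 2 h and -0.08 at 8 h, with limma adjusted p = 0.713 and 0.801.

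The 19 spots within 2 rows and 2 columns of AI947544 gave another picture, though most of them lie in other printed rows. Subtracting their median therefore cannot remove a signal that only its own row shares. The median of these 19 spots at 8 h was -0.009, -0.31, -0.024 and 0.06 on slides a to d. At 2 h it was -0.784 on slide a, -0.132 on c and -0.073 on d. It was near 0 on 3 of 4 slides at 8 h and on slide c at 2 h, where the feature was low. With this local median subtracted, also chosen after the data were seen, the feature passed at 8 h with -0.82 ± 0.156 (SE, limma adjusted p = 0.00797) and not at 2 h, with -0.62 ± 0.181 (adjusted p = 0.0619).

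None of the other 4 features of PIP1-3/PIP1-4 was called lower at any time. Feature BQ293420 was higher in UV leaves at 8 h, with 0.922, 0.401, 0.56 and 0.26 on slides a to d. All 4 slides lay above 0, and the fit gave 0.54 ± 0.109 (SE, n = 4 slides), a 1.45-fold higher level (limma adjusted p = 0.0123). Its row had medians between 0.008 and 0.224 on these slides, which are lower than the feature on every slide. With the row median subtracted the fit gave 0.44 (limma adjusted p = 0.0659), and without slide a of 8 h it gave 0.45 (adjusted p = 0.0982). Feature AI770766 had 0.306, 0.154, 0.686 and 0.116 at 8 h, positive on all 4 slides, with a fit of 0.32 ± 0.132 that did not pass (limma adjusted p = 0.159). Feature AI738281, dimmer than the brightest foreign spot, had -0.671, -0.298, -0.215 and -0.423 at 8 h, with a fit of -0.40 ± 0.197 (adjusted p = 0.238). It was negative on all slides as AI947544 was, and so was its row, with medians of -0.778, -0.567, -0.214 and -0.192. Feature AW862744 had -0.396, -0.071, -0.214 and 0.279, values on both sides of 0, with a fit of -0.10 and a 95% interval from -0.42 to 0.22.

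**Figure D2:**
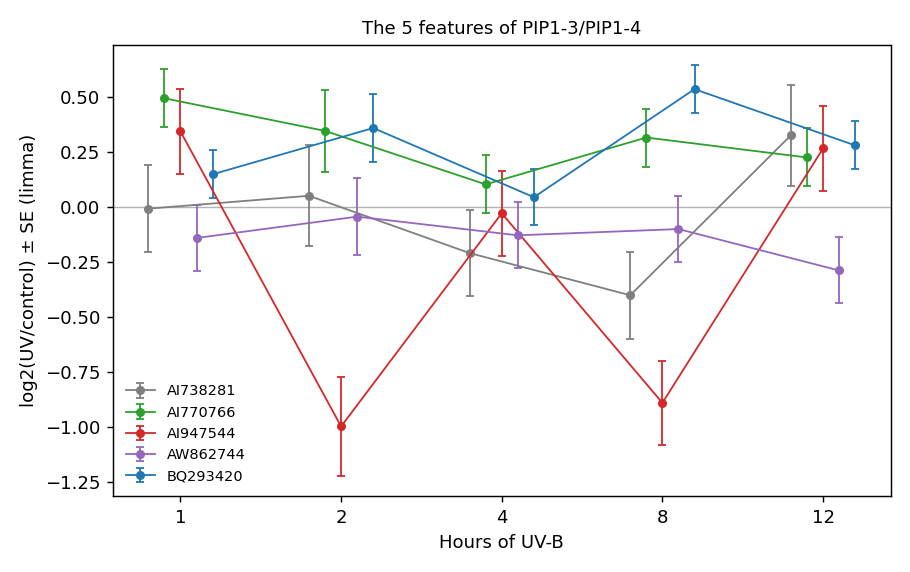
Log2(UV/control) of the 5 features of PIP1-3/PIP1-4 (vertical axis, limma estimate ± SE) after 1, 2, 4, 8 and 12 h of UV-B (horizontal axis), slightly offset so that error bars can be seen. At 8 h feature AI947544 lies at -0.89 and feature BQ293420 at 0.54, on opposite sides of 0. Neither passes at 8 h with the median of the other spots in its printed row subtracted.

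Features of one gene were in general little alike over the slides. Over 25 pairs of features of one gene, r of log2(UV/control) had a median of 0.118 and ran from -0.507 to 0.76, and over 471 pairs of different genes the median was -0.028. These pairs share slides, and the probe sequences were not used here, so how much each cDNA cross-hybridises with near-identical PIP genes is uncertain.

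PIP2-6, or pip2f, a plasma membrane aquaporin of the PIP2 group, was called higher in UV leaves at 8 h, a call that needed all 4 slides. Its feature BQ279705 gave 0.482, 1.038, 0.956 and 2.271 on slides a to d. All 4 were positive, with slide d far above the others, and the fit gave 1.19 ± 0.320 (SE, n = 4 slides), a 2.28-fold higher level (limma adjusted p = 0.0354). It was the highest fitted value of the family at any time. At 2 h, slide c gave 2.831 while slides a and d gave 0.096 and 0.237, and the fit of 0.98 ± 0.372 did not pass (adjusted p = 0.144). At 1 h all 4 values lay between -0.102 and 0.113, and at 12 h slides a and b were negative (-0.385 and -0.494) and slides c and d positive (0.145 and 0.354).

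The 8 h call of PIP2-6 was lost without any 1 of the 4 slides, with adjusted p by limma of 0.0888, 0.123, 0.0503 and 0.173 without slides a to d. The median of the 21 other spots in its row at 8 h was 0.394, 0.36, 0.813 and 0.735, positive on all 4 slides, and on slide c at 2 h it was 0.62. With that median subtracted, the fit at 8 h gave 0.61 (limma adjusted p = 0.208), and with the local median of the surrounding spots subtracted 0.98 (adjusted p = 0.0778). The feature's mean log2 intensity, 16.825, was just above the brightest foreign spot.

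**Figure D3:**
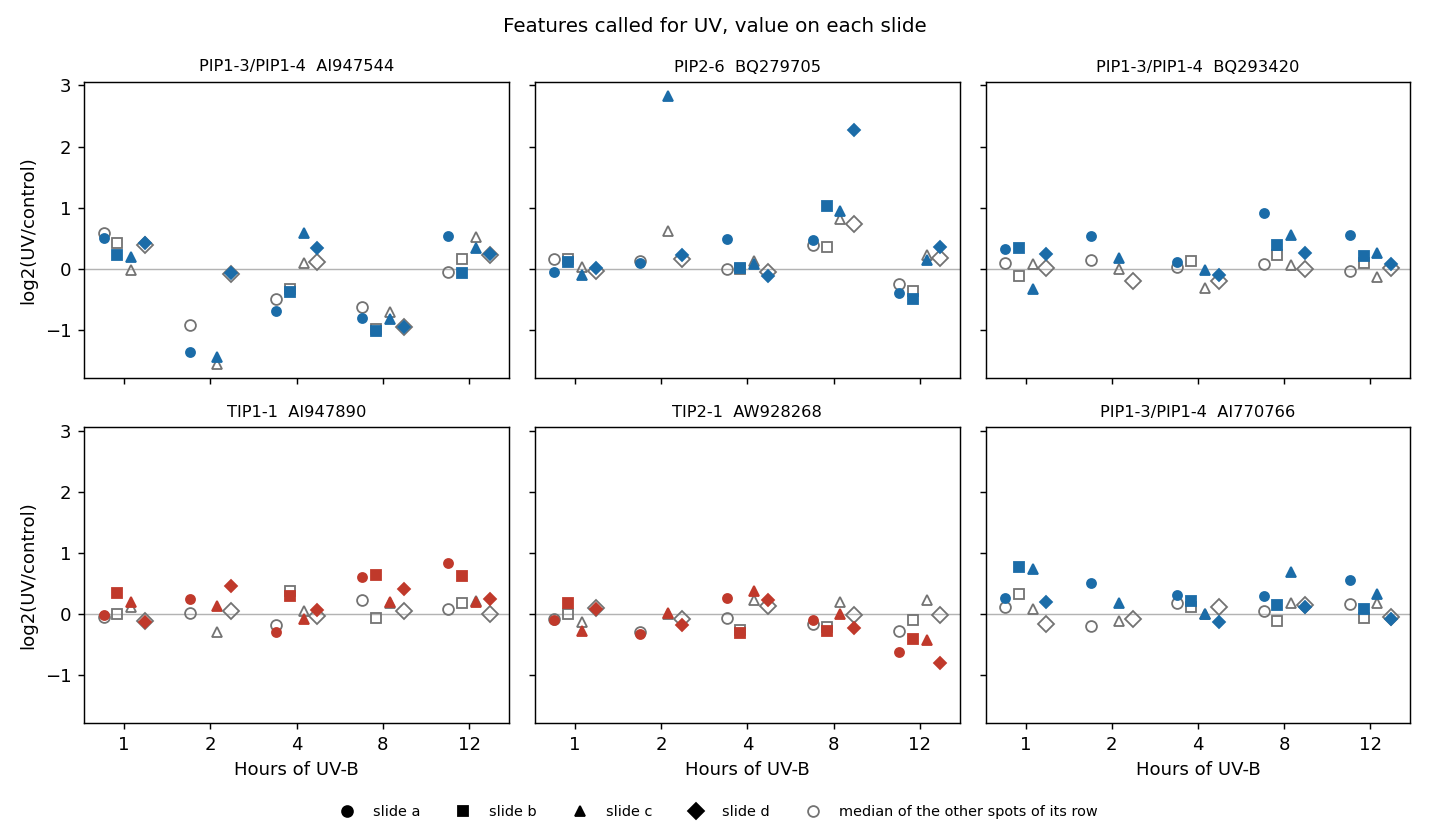
Log2(UV/control) on each slide (vertical axis) at each time (horizontal axis) for 6 aquaporin features that passed at a time or for the mean over times; filled symbols are the feature (blue PIP, red TIP), open symbols the median of the other spots in its printed row, and the symbol's shape gives the slide. For AI947544 filled and open symbols fall together at 2 and 8 h. For TIP2-1 AW928268 at 12 h all 4 filled symbols lie between -0.79 and -0.402, below their rows. PIP1-2 AW313343 and NIP1-1 AW563053 also passed for the mean over times and are not shown.

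The rule for naming features with a similar pattern took, for these genes, the feature with the smallest p at a single time and compared it with 1178 or 1183 named features of other genes. For BQ293420 the most alike feature was another aquaporin, PIP1-2 AW313343, with r = 0.896 over 17 slides, followed by fae1 BU092982 (r = 0.863, 16 slides) and nfc102 BQ048438 (r = 0.86, 16 slides). For PIP2-6 they were adh1 BQ294321 (r = 0.934), aoc1 BQ279264 (r = 0.926) and SE1B BQ279834 (r = 0.904), each over 19 slides. The adh1 spot was printed next to the PIP2-6 spot, in the same row of the same block, and the other 2 in row 13 of other blocks, which is the row of PIP2-6 in its own block. For AI947544, a choice made after its values were seen, they were NIR AI947717 (r = 0.866, 17 slides), CCR AI947674 (r = 0.848) and adh1 AW231317 (r = 0.845, both over 19 slides), of which CCR was printed in the same row. All these values share the slides and their spot layout.

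The other PIP genes passed at no single time. PIP1-1 feature AW433358 had -0.419, -0.811, -0.81 and -0.688 at 8 h, negative on all 4 slides, and its fit of -0.68 ± 0.303 did not pass (limma adjusted p = 0.185). The other 3 PIP1-1 features had fits of 0.12, 0.27 and -0.17 at 8 h. PIP2-1, an active water channel in maize, had narrow intervals: feature AI855318 gave 0.07 at 8 h with a 95% interval from -0.12 to 0.26, and BQ635488 gave 0.16, from -0.03 to 0.34. For PIP1-5, slide b at 1 h stood apart, with -2.873 for AI861086 and -1.12 for AW042158, where the other slides lay between -0.266 and 0.724. Of the 2 features of PIP2-4, AI861274 gave -0.16 at 8 h with an interval from -0.69 to 0.36, and AI667810 gave -0.64, from -1.23 to -0.05 (adjusted p = 0.175).

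Among the tonoplast members, 1 feature of TIP1-1 rose and 1 of TIP2-1 fell. TIP1-1 is a vacuolar water channel of maize. Its feature AI947890 gave 0.61, 0.644, 0.195 and 0.406 at 8 h and 0.833, 0.627, 0.201 and 0.253 at 12 h on slides a to d. All 8 values were positive, and at both times slide c was the lowest. The fits were 0.46 ± 0.113 at 8 h and 0.48 ± 0.113 at 12 h (SE, n = 4 slides each), 1.38-fold and 1.39-fold higher levels (limma adjusted p = 0.0229 and 0.0258). The mean of slides a and b was larger than that of slides c and d at both times, 0.627 against 0.3 at 8 h and 0.730 against 0.227 at 12 h. The 12 h call was lost without any 1 of its 4 slides (adjusted p from 0.0667 to 0.172), and the 8 h call without slide a, b or d (0.119, 0.101 and 0.0781).

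The spots around AI947890 were positive too, with a median of the 19 closest of 0.265, 0.186, 0.227 and 0.081 at 8 h and 0.091, 0.299, 0.201 and 0.084 at 12 h. They lay below the feature on 3 of 4 slides at 8 h, the exception being slide c, and equalled it on slide c at 12 h. With this local median subtracted both calls were lost, with 0.27 at 8 h and 0.31 at 12 h (limma adjusted p = 0.0981 and 0.0866). With the row median subtracted they were lost as well, with 0.37 and 0.36 (adjusted p = 0.057 and 0.0788).

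The other TIP1-1 features differed from it. At 12 h AI920384 gave -0.132, -0.491, 0.141 and -1.33, negative on 3 of 4 slides, with a fit of -0.45 ± 0.220 (limma adjusted p = 0.278). BQ528119 gave 0.355, 0.317, -0.18 and 0.697 at 8 h, positive on 3 of 4 slides, with a fit of 0.30 ± 0.132 (adjusted p = 0.186). Neither passed at any time.

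TIP2-1, another vacuolar aquaporin, was lower in UV leaves at 12 h on feature AW928268, with -0.617, -0.402, -0.42 and -0.79 on slides a to d. All 4 were below 0 in both dye orientations, and below the row medians of -0.274, -0.1, 0.239 and -0.01. The fit gave -0.56 ± 0.112 (SE, n = 4 slides), a level 0.68 times that of the control (limma adjusted p = 0.0123). With the row median subtracted it was -0.52 (adjusted p = 0.00214), so that it passed without the signal of its row too. At 8 h its values of -0.092, -0.276, 0.01 and -0.218 were closer to 0 and their fit of -0.14 did not pass. Without slide a, c or d of 12 h its adjusted p by limma was 0.0631, 0.0586 and 0.0769. The second TIP2-1 feature, AI948211, gave -0.269, -0.271, 0.054 and -0.072 at 12 h, with a fit of -0.14 and a 95% interval from -0.31 to 0.03.

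TIP4-1 BE056254 gave -0.675, 0.151, -0.002 and 0.617 at 12 h, values on both sides of 0, with a fit of 0.02 and an interval from -0.29 to 0.34. TIP5-1 BQ485303 gave fits between -0.25 and 0.08 over the times, and none passed.

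No NIP or SIP feature passed at a single time. NIP2-1 (Lsi1), the silicon influx channel of the grasses, had fits between -0.12 and 0.07 over the 5 times. NIP2-3 (Lsi6), a silicon channel of the same group, had features that disagreed. On slide b at 8 h AI834608 gave -2.166, whereas its other slides gave -0.167, 0.252 and -0.163. BE129792 gave -0.075, 0.137, 0.011 and 0.169 at the same time, all near 0. NIP3-1, a boron channel of maize, gave -1.725 on slide a at 2 h against 0.397 and -0.101 on slides c and d, and correlated with its row at r = 0.973.

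The SIP2-1 feature AI737990, which lay below the brightest foreign spot, had the lowest fit of the family at 4 h and the second lowest at 8 h. At 8 h it gave -2.176, -1.199, -0.036 and 0.044, low on the slides with UV in Cy5 and near 0 on the slides with UV in Cy3. Its fit of -0.84 ± 0.333 did not pass (limma adjusted p = 0.134), and its row median was -2.084, -1.201, -0.017 and 0.31 on the same slides. The SIP1-1 features AI668312 and BE129574 gave -0.25 and -0.44 at 8 h, with limma adjusted p of at least 0.164.

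Averaged over the 5 times, 5 aquaporin features were higher in UV leaves and none lower by limma, 15.6% of the 32 against 14.4% of all features, of which 8.71% were higher and 5.66% lower. The mean log2(UV/control) was 0.30 ± 0.0646 for PIP1-3/PIP1-4 AI770766 (SE, adjusted p = 0.00679), 0.27 ± 0.0549 for PIP1-3/PIP1-4 BQ293420 (adjusted p = 0.00474) and 0.27 ± 0.0523 for TIP1-1 AI947890 (adjusted p = 0.00285). These 3 kept their calls without any single slide that could be left out, and also with the row median subtracted, where their adjusted p was 0.00471, 0.0183 and 0.00652. PIP1-2 AW313343 gave 0.21 ± 0.0598 (adjusted p = 0.0272) and NIP1-1 AW563053, of the NOD26-like group, 0.22 ± 0.0672 (adjusted p = 0.0396). PIP1-2 was positive on all 4 slides at 8 h, with 0.715, 0.16, 0.493 and 0.176, and on all 3 at 2 h. Its call was lost without each of 6 slides in turn (adjusted p up to 0.0692) and that of NIP1-1 without each of 13 (up to 0.0843). With the row median subtracted NIP1-1 gave 0.15 (limma adjusted p = 0.183). At 1 h its slides a to d gave 0.49, 0.954, -0.572 and -0.194, which separates them by dye orientation. The mean log2 intensity of NIP1-1, 16.838, was just above the brightest foreign spot. On the slides with UV in Cy5 all 5 had larger means than on those with UV in Cy3, and the mean of slides in either orientation was positive, from 0.043 for NIP1-1 to 0.426 for BQ293420.

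The next question was whether plasma membrane and tonoplast members responded apart. The medians of the fitted log2(UV/control) differed little, with PIP minus TIP of 0.014 at 1 h, -0.154 at 2 h, 0.037 at 4 h, 0.037 at 8 h and 0.229 at 12 h. On single slides of 12 h the difference was 0.427, -0.110, 0.0692 and 0.0534 on slides a to d. It was positive on 3 slides and negative on slide b, with an SD of 0.226 over 4 slides, about the size of the difference. At 2 h it was -0.286, -0.243 and 0.248 on slides a, c and d (SD 0.296), and at 8 h it ran from -0.349 to 0.323 (SD 0.282). At no time did the PIP median lie on one side of the TIP median on all slides. These are descriptions of the features on these slides, with no test over the list.

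**Figure D4:**
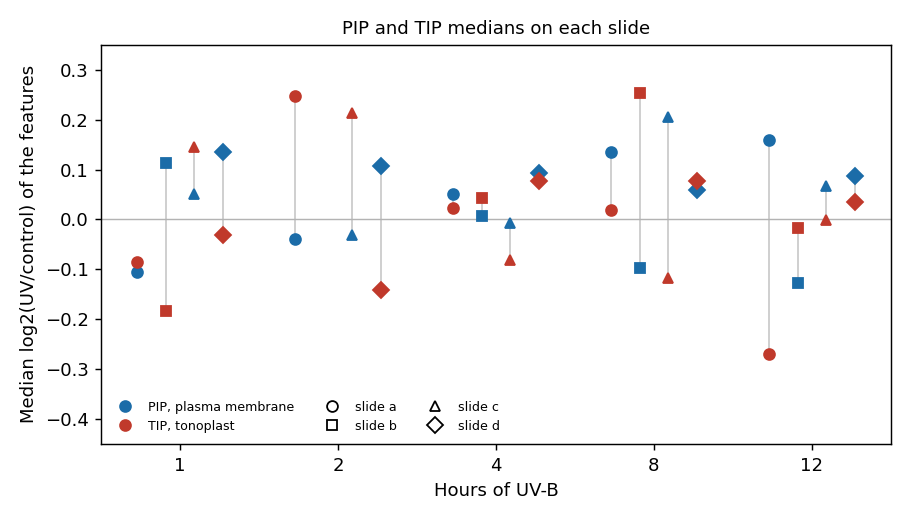
Median log2(UV/control) of the 17 PIP features (blue) and the 7 TIP features (red) on each of 19 slides (vertical axis) by hours of UV-B (horizontal axis); a grey line joins both medians of a slide and the symbol gives the slide letter. At every time the order of the colours differs between slides, and all medians lie between -0.269 and 0.253.

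In control leaves the comparison over the time course asks which aquaporin transcripts changed without UV. It could be made for the 26 aquaporin features measured on all slides. By the limma separate-channel F-test 2 passed, and 13.8% of all 14206 features did. PIP1-1 AI947800 fell: its normalized log2 intensity in control leaves was 20.034, 19.77, 19.519 and 19.785 at 1 h and 18.712, 18.672, 18.733 and 19.016 at 12 h on slides a to d. All values of 12 h lay below all values of 1 h. How many of all features separate in this way was not counted, and this feature had been picked by the F-test. The difference from 1 h was -0.67 ± 0.195 at 4 h (SE, limma adjusted p = 0.0233, where 7.52% of all features were lower), -0.78 ± 0.195 at 8 h (adjusted p = 0.0567) and -0.99 ± 0.195 at 12 h (adjusted p = 0.00352, where 1.77% were lower). The F-test gave an adjusted p of 0.00845, and leaving out any 1 slide left it between 0.000928 and 0.0249.

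The UV leaves of the same slides went from 19.7 ± 0.236 (SD, n = 4) at 1 h to 18.7 ± 0.147 at 12 h on this feature, close to the control means of 19.8 and 18.8. The 20 other features of its row that entered this fit had a median change of 0.165 from 1 h to 12 h, in the opposite direction. The other PIP1-1 features in this fit, AI770450 and AW433358, gave 0.32 ± 0.397 and 0.48 ± 0.496 at 12 h and did not pass.

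PIP1-2 AW313343 also passed the F-test (limma adjusted p = 0.0408). Its control values were 21.63, 21.605, 21.959 and 21.69 at 1 h, and 20.298, 20.803, 21.075 and 20.961 at 8 h. All values of 8 h lay below all values of 1 h, which was likewise not counted over all features. The difference from 1 h was -0.94 ± 0.258 at 8 h (SE, limma adjusted p = 0.0834) and -0.78 ± 0.258 at 12 h (adjusted p = 0.0826). Its row changed by -0.2 at 12 h. Its F-test call was lost without each of 13 slides in turn, with adjusted p up to 0.109.

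**Figure D5:**
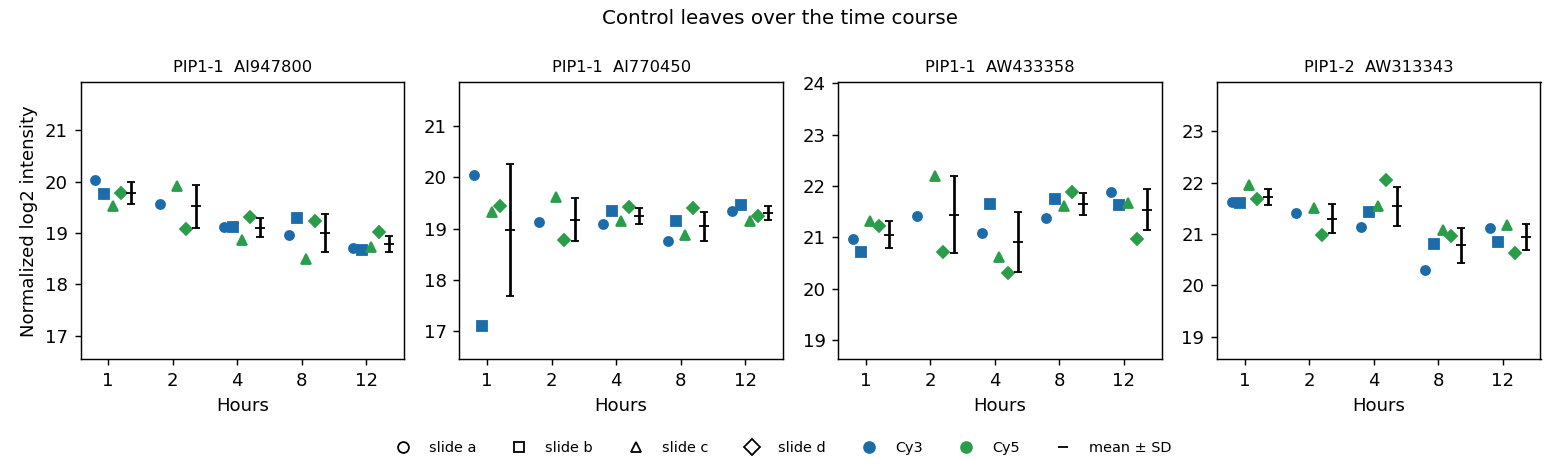
Normalized log2 intensity in control leaves (vertical axis) by hours (horizontal axis) for 3 PIP1-1 features and PIP1-2 AW313343; symbols are single slides coloured by the dye of the control sample, and the black bars are mean ± SD. For PIP1-1 AI947800 the 12 h values of 18.672 to 19.016 lie below the 1 h values of 19.519 to 20.034, and the other PIP1-1 features show no such order. How many of all features separate in this way was not counted.

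Genes that work beside aquaporins were described as lists chosen with earlier results of these data known. Of 11 features of 6 genes for membrane energisation and ion or solute transport, 1 was higher and 1 lower at 8 h, 1 higher and 2 lower at 12 h, and 1 higher and 2 lower for the mean over times. Of all features 5.04% were higher and 2.48% lower at 8 h, 2.33% and 2% at 12 h, and 8.71% and 5.66% for the mean, and on so few features these counts are not set apart from that background. Of 3 features of the plasma membrane proton pump mha4, AW065225 was higher, with 0.56 ± 0.144 at 8 h and 0.72 ± 0.144 at 12 h (SE, limma adjusted p = 0.0281 and 0.012). The other mha4 features did not pass, BE129887 with -0.08 and -0.11 and AI615212 with 0.00 and 0.16 at these times. The vacuolar proton-pumping pyrophosphatase vpp1 was lower at 12 h on both features that passed, AI668193 with -0.69 ± 0.162 and BE130067 with -0.52 ± 0.123 (adjusted p = 0.0254 and 0.0268). Of 2 features of the calcium/proton exchanger ZCAX2, AI948042 was lower at 8 h, with -0.90 ± 0.155 (limma adjusted p = 0.00707), and AI783307 gave 0.06 (adjusted p = 0.771). The mean log2 intensity of AI948042, 16.938, was just above the brightest foreign spot. Calls in this list and in the next were not repeated with row medians subtracted or single slides left out.

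Of 16 features of 11 genes for water deficit and abscisic acid, 2 were higher and 0 lower at 8 h against 5.04% and 2.48% of all features, and none passed at the other single times. The 2 were glb3 AI711821 and glb1 AW066754, of seed storage globulins, both dimmer than the brightest foreign spot, with mean log2 intensities of 15.3 and 15.2. The other 2 glb1 features had negative values at 8 h that did not pass, -0.21 for AW261338 and -0.65 for AW267422. For the mean over times 0 were higher and 3 lower, namely the dehydrin dhn1 (AI947963), with -0.21 ± 0.0614 (limma adjusted p = 0.0329), and these 2 glb1 features, against 8.71% higher and 5.66% lower among all features. Of these, glb1 AW261338 was also dimmer than the brightest foreign spot, with a mean log2 intensity of 14.87. The features of another dehydrin, dehydrin3, had positive means of 0.06, 0.34, 0.10 and 0.07 that did not pass. The median log2(UV/control) of the list was 0.0739 at 8 h, against -1e-04 for all features. At 1, 2, 4 and 12 h the list median was -0.0744, -0.0265, -0.0362 and 0.0075, and for the mean over times 0.0653.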

How the data were processed

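The deposited files hold a linear intensity for every spot of a sample. TIGR Spotfinder was used on the scans, per the labels, with any background subtraction not given in the sources used here. The authors' series matrix holds a processed score of the same samples with unknown scale, and was used only as an alternative. Intensities were corrected with normexp (offset 50) and normalized within each slide by loess (span 0.3) in limma 3.58.1 (R 4.3.3). Of 20231 spot positions, 155 without a plain feature name were left out, spots of one feature were averaged, and features measured on at least 2 slides of every time were tested. The fit held 5 time means and a dye term, with 13 residual degrees of freedom and a spread pooled over all times. Control leaves were compared over time by a separate-channel fit after Aquantile normalization, with an estimated intraspot correlation of 0.786.

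The platform table gave locus symbols, so members were found through synonyms in the RefSeq gene table. Of 1334 platform probes 1283 were in it. UV and control samples of one slide are paired by the design, and their deviations from group means correlated at r between 0.656 and 0.922. Members and gene lists were chosen with earlier results of these data known. Values per slide are given at some or all times for aquaporin features that passed a test and for all features of PIP1-3 and pip2f. Others are given by counts or examples, of which some (such as AW433358, NIP3-1 and SIP2-1) were chosen after their values were seen. Scripts were tested on simulated data. Slide b of 2 h was not analysed here.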

Additional observations from a re-analysis of the deposited data

Results flagged for a closer look

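Of 127 groups of 4 slides, 4 held a slide whose distance from the nearest other slide exceeded Dixon's critical value, and chance alone marks about 5% of groups. PIP1-3/PIP1-4 BQ293420 had log2(UV/control) of -0.318 on slide c at 1 h, where the nearest other slide had 0.24. PIP1-5 AI861086 had -0.608 on slide b at 8 h (nearest 0.135), TIP5-1 BQ485303 had -0.525 on slide c at 8 h (nearest 0.025), and PIP1-1 AW433358 had -0.085 on slide a at 12 h (nearest 0.156). PIP2-1 BQ635488 was negative on every slide at 2 h, with a fit of -0.0568, and positive on every slide at 8 h, with 0.1561. Its 2 h values were near 0, with -0.062, -0.102 and -0.001 on slides a, c and d. This was the only pair flagged among 192 pairs of the times 2, 4, 8 and 12 h checked over the members. The number expected by chance was not computed. The difference of BQ635488 between 2 h and 8 h was not tested. Pairs with 1 h were not among the 192. Against 1 h, signs were opposite on every slide for AI947544 at 2 h and 8 h. The same held at 2 h for NIP2-3 AI834608 and PIP2-1 AI855318. These differences from 1 h did not pass by limma (adjusted p = 0.0864, 0.051, 0.42 and 0.324).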

How the results depend on the processing

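Counts of aquaporin features that passed changed with several settings. The share of all features that passed under each setting is not given here. A higher or lower count therefore cannot be read as a change of the aquaporins in particular. Without the replicate block (UV and control of a slide taken as unpaired) 0 passed at 2 h, 8 h, 12 h and for the mean, and 2 in control leaves; with the replicate letter as a block instead, 1, 3, 2 and 4 passed. Median centring gave 7 at 8 h, 1 at 12 h, 8 for the mean and 1 between times. Loess within blocks gave 1 at 12 h and a PIP minus TIP median of -0.011 at 4 h. Scaling between slides gave 0 at 2 h, and slide weights 0 at 2 h and 1 between times. Without the dye term, 1 passed at 12 h and 3 for the mean. Slides of one time alone gave 0 at 2 h, 8 h and 12 h, with fewer residual degrees of freedom. The authors' matrix gave 1 at 12 h and 8 for the mean. Uncorrected intensities gave 1 between times. Among features above the brightest foreign spot 1 passed between times and 8 for the mean, and among those on all slides 3 for the mean. The local median (a window of 2 rows and columns) and the row median, both chosen after seeing the data, left 0 at 2 h, 2 and 0 at 8 h, and 1 and 1 at 12 h. Without single slides the counts ran from 0 to 1 at 2 h, 0 to 4 at 8 h (0 without slide a), 0 to 2 at 12 h, 2 to 6 for the mean, 0 to 1 between times and 1 to 3 in control leaves, and the 4 h PIP minus TIP median from -0.04 to 0.093. The cause of these moves was not tested unless stated. Directions of the named calls did not reverse under any of these settings, which concerns the sign only and not the size. With the row median subtracted AI947544 shrank to -0.13 at 2 h and -0.08 at 8 h. The number of slides and dim spots near the foreign spots limit the precision.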
